A study of Mus musculus with 8 samples.

Results

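The 10 extracellular matrix genes described here are genes that hepatic stellate cells, the vitamin A storing pericytes of the liver sinusoid, are known to express: the collagens Col1a1, Col1a2, Col3a1, Col4a1 and Col4a2, the small leucine-rich proteoglycans Dcn (decorin), Lum (lumican) and Bgn (biglycan), the matricellular protein gene Sparc, and Timp3, an inhibitor of matrix-degrading proteases. They were chosen by gene symbol. All 10 were on the array, with 15 of the 12422 probe sets that are not controls, and the brightest probe set stood for each gene. A probe set is a group of short oligonucleotides that together read 1 transcript, mostly near its 3′ end. All 10 brightest sets lay above the level filter, a geometric mean signal of 149, and so stand among the 4810 genes kept of 8251 named.

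The livers came from 8 female mice of the Ames stock, whose recessive df allele causes pituitary dwarfism when homozygous. All 8 animals were phenotypically normal, of genotype +/+ or +/df (the labels do not say which animal had which), had free access to water, received 30% less food than freely fed normal females ate, and were killed at 24 to 26 months. RNA of whole liver was hybridised to Affymetrix mouse U74Av2 arrays. The labels give this single group (n = 8), so the results concern the signal of each gene and its differences from animal to animal, without a contrast of diet, genotype or age.

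Fibrillar collagens (types I and III) assemble into cable-like fibres after secretion, and type IV collagen forms the sheet-like network of basement membranes. Decorin, lumican and biglycan bind collagen fibrils and control their spacing, and SPARC binds collagen and mineral. In the liver, stellate cells are a main source of fibrillar collagen when they turn into myofibroblasts, while sinusoidal endothelial cells, portal fibroblasts and smooth muscle cells are also known to express several of these genes. In whole liver RNA, fewer cells of a type and less RNA per cell cannot be told apart.

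Signals are linear intensities in arbitrary units after quantile normalization, which makes the arrays share 1 distribution, with a floor at 24.6. Each animal was measured on 1 array, so differences between animals include those between arrays. Signals are compared between arrays for 1 probe set at a time and not between genes. A pair of arrays stood apart from the rest over all genes. The signal of probe sets for the 3′ end over that for the 5′ end of a control transcript is a usual measure of RNA quality. For Gapdh this log2 ratio reached 4.35 on replicate 5, replicate 6 had 0.33, and the other 6 arrays lay between −0.24 and −0.17. For actin the highest ratios were 1.34 on replicate 5 and 0.84 on replicate 6, against 0.53 to 0.76. For pyruvate carboxylase, replicates 5 and 6 had log2 ratios of 4.33 and 4.30, and the other 6 arrays lay between 1.42 and 2.76. The median correlation with the other arrays was 0.881 for replicate 5, 0.943 for replicate 6 and 0.962 to 0.974 for the other 6.

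On average the matrix genes were low on replicate 6 and high on replicate 1, but not every gene was low on replicate 6. On replicate 6, 9 of the 10 genes lay below their own mean over the arrays, where 2177 of all 4810 kept genes did, and 4 of 10 had their lowest value there (Col3a1, Dcn, Lum and Sparc) where 16.6% of all kept genes did. On replicate 1 none of the 10 genes lay below its own mean, and 4 (Col3a1, Col4a1, Dcn and Sparc) had their highest value, beside 6.05% of all kept genes. The mean deviation of the 10 genes from their own means was −0.34 on replicate 6, 0.27 on replicate 1 and −0.09 to 0.10 on the other 6 arrays, on the log2 scale. The median deviation was −0.14 on replicate 6, 0.17 on replicate 1 and −0.07 to 0.12 on the others. On replicate 6 Col3a1 lay at −1.24 and Sparc at −0.88. Bgn (−0.03), Col1a2 (−0.05) and Col4a1 (−0.06) lay close to their means there, and Col1a1 (0.11) lay above its mean. Replicate 6 also had 3′ over 5′ ratios above those of all arrays but replicate 5 for the 3 controls, whose part in these low values was not tested.

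**Figure D1:**
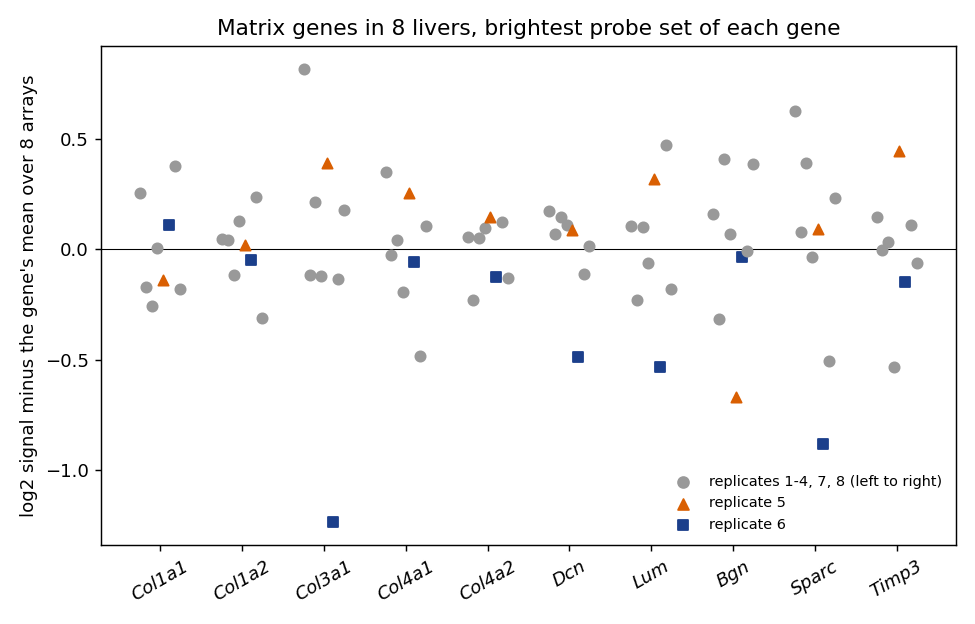
Log2 signal of each of the 10 matrix genes (x axis) on each of 8 liver arrays, after the gene's mean over the arrays is subtracted (y axis). Each point is 1 animal, with replicate 5 as a triangle and replicate 6 as a square. Replicate 6 is the lowest point for Col3a1, Dcn, Lum and Sparc and lies close to the other animals for Bgn, Col1a2 and Col4a1.

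The spread of each gene between animals was then set against transcripts of like level, as its variance over limma's prior variance for that level. None of the 10 matrix genes passed, beside 0% of the 6211 kept probe sets at an adjusted p of 0.05. At an unadjusted p of 0.05, 0 of the 10 passed as well, beside 5.67% of all kept probe sets. The log2 ratio of a gene's variance to that of transcripts with a similar signal is above 0 where the gene varied more. It was highest for Sparc at 1.75 (adjusted p = 0.988 by limma), then 1.28 for Col3a1 and 1.09 for Bgn, and lowest for Col4a2 at −1.81 and Col1a2 at −1.16. Without replicate 6 the ratio was 0.99 for Sparc, 0.03 for Col3a1 and 1.46 for Bgn. Without replicate 5 it was 2.70 for Sparc, which then passed the unadjusted threshold (adjusted p = 0.801 by limma), as did 372 of the 6211 kept probe sets. The median over the 10 genes was 0.09 and over all kept probe sets 0.12, and 4 of the 10 genes differed by more than 2-fold between the lowest and the highest animal, beside 38.6% of all kept probe sets. The median coefficient of variation was 18.1% for the 10 genes and 19.5% for all kept probe sets; without replicates 5 and 6 it was 18.3% and 13.3%.

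Among the brightest sets of the fibrillar collagens, Col3a1 varied most. Col3a1, the chain of the type III homotrimer, was 66.3 on replicate 6, had a median of 161 and reached 276 on replicate 1, with a mean of 167 ± 60.3 (SD, n = 8). Its lowest and highest animals differed 4.16-fold, and the other 7 arrays, from 142 upward, differed 1.94-fold. Replicate 6 lay 1.42 log2 units below the median of the other 7 arrays (a difference of −1.42). The gene's remaining pair of probe sets gave little to set beside this, since each was at the floor on 7 of 8 arrays.

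The brightest sets of the type I chains did not share the low value on replicate 6. Col1a1, the chain present in a pair of copies in each type I trimer, had its lowest value of 323 on replicate 3, a median of 369 and its highest of 502 on replicate 7, with a mean of 391 ± 64.4 (SD, n = 8) and a 1.55-fold range. On replicate 6 it read 417, above the median. Col1a2, the partner chain, had its lowest value of 1339 on replicate 8, a median of 1695 and its highest of 1955 on replicate 7, with a mean of 1669 ± 185 (SD, n = 8) and a 1.46-fold range. The order of the animals thus differed from that of Col3a1, with replicates 6 and 1 inside the range of the rest for each of the type I sets.

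The choice of probe set bears directly on the type I collagens. The second Col1a1 set, which unlike the brightest has a sequence accession in the platform annotation, was at the floor on replicate 6, read 42.4 on replicate 8 and 98.7 on replicate 1, with the other 5 arrays in between. Its log2 values had a Pearson r of 0.15 with the brightest Col1a1 set over 8 arrays and 0.60 over the 6 without replicates 5 and 6. The second Col1a2 set was lowest at 29.8 on replicate 6 and highest at 127 on replicate 3, with a median of 42.5 and a 4.25-fold range, and its r with the brightest set was −0.11 (−0.22 over 6 arrays). The brightest Col1a2 set carries the suffix r, which Affymetrix gave to sets whose probes did not meet all design rules. Neither second set passed the level filter. For Col1a1 and Col1a2 alike, which animal was lowest therefore depended on the probe set. After normalization it was replicate 6 on each second set, as for Col3a1. For the second Col1a2 set this depended on the scaling, since its deposited signals were 31.9 on replicate 8 and 32.6 on replicate 6.

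**Figure D2:**
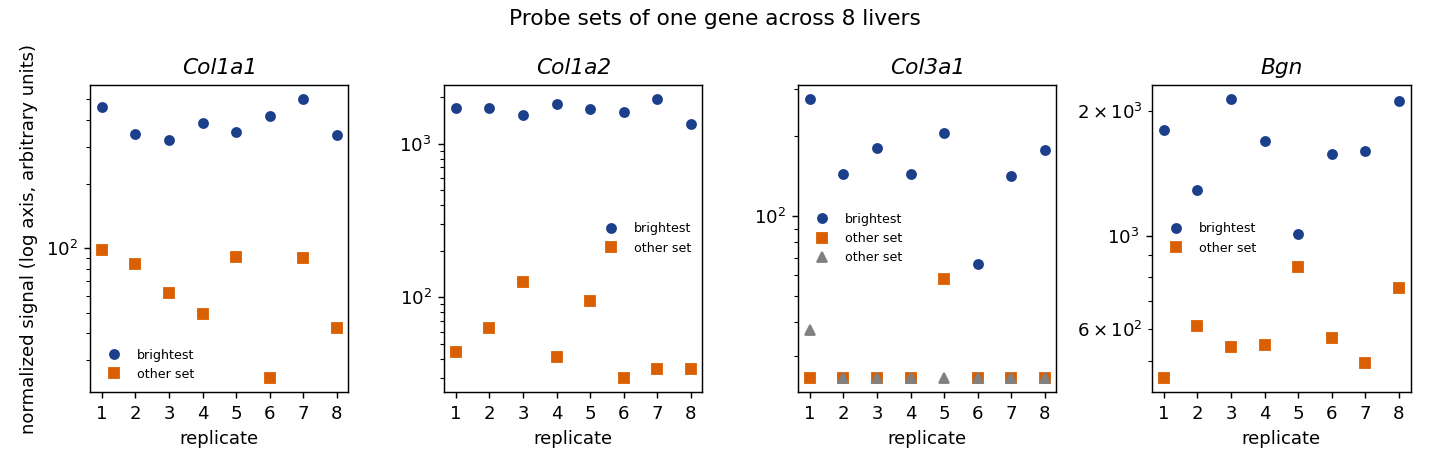
Normalized signal (log axis, arbitrary units) of every probe set of Col1a1, Col1a2, Col3a1 and Bgn on the 8 arrays (x axis, replicate number, which has no order). Circles are the brightest set. The second Col1a1 set is at the floor on replicate 6, and on replicate 5 the brightest Bgn set has its lowest value (1011) and the second its highest (844).

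The type IV collagen chains, which form a joint trimer of basement membranes, varied less than Col3a1, and their orders over the animals differed. Col4a1 ran from 178 on replicate 7 through a median of 249.6 to 316 on replicate 1, with a mean of 251 ± 43.7 (SD, n = 8). Col4a2 ran from 437 on replicate 2 through 534 to 569 on replicate 5, with a mean of 515 ± 49.3 (SD, n = 8) and a 1.30-fold range, the narrowest of the 10 genes. Replicate 7, lowest for Col4a1, was the second highest for Col4a2 at 560.4. Over the 8 arrays the chains had a Pearson r of −0.08 (exact permutation p = 0.854, adjusted 0.911 over 8 pairs) and a Spearman rho of −0.05 (exact permutation p = 0.935, adjusted 0.935). Without the animals farthest from the Col4a1 median, replicates 1 and 7, r was 0.21, and without replicates 5 and 6 it was −0.33. With 8 arrays these values do not show that the chains are unrelated.

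These genes lie head to head, so the stretch between their starts is shown. In RefSeq (GRCm38.p6) the 300-base windows around the annotated starts, 250 bases before to 50 after, overlap by 78 bases. Col4a2 starts at position 11312805 of the plus strand and Col4a1 at 11312826 of the minus strand, 21 bases apart. The annotated Col4a1 gene reaches further, to 11312889, so the distance holds for the start used here. The stretch from start to start belongs to the 5′ ends of both transcripts and is given on the plus strand at chr8:11312805-11312826, with a GC box (GGGCGG, a common promoter element) in capitals.
Col4a1 and Col4a2, start to start: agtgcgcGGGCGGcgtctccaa
Searched on both strands, GGGCGG was found in 35.7% of the 32851 windows of this length in the table, so the match does not set these genes apart.

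Decorin and lumican, whose genes are neighbours with no other gene between them in that annotation, were each lowest on replicate 6. Dcn read 2952 on replicate 6 and 3840.0 to 4679.9 on the other 7 arrays, with a median of 4379 and a mean of 4185 ± 561 (SD, n = 8). Apart from replicate 6 the animals were close to each other, within 1.22-fold, against 1.59-fold with it. Lum read 216.0 on replicate 6, had a median of 318 and reached 435 on replicate 7, with a mean of 319.8 ± 70.4 (SD, n = 8) and a 2.01-fold range (1.63-fold without replicate 6). Replicate 7 was the second lowest for Dcn and the highest for Lum. The pair had a Pearson r of 0.50 (exact permutation p = 0.218, adjusted 0.581 over 8 pairs) and a rho of 0.33 (exact permutation p = 0.428, adjusted 0.616), with r = 0.51 without replicates 6 and 7. Without replicates 5 and 6 the sign turned, to −0.44.

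Biglycan, the proteoglycan closest to decorin in sequence, followed another order. Bgn was 1011 on replicate 5, had a median of 1648 and reached 2138 on replicate 3, with a mean of 1652 ± 381 (SD, n = 8), and read 1572 on replicate 6, close to the middle. Its second set, of the class that Affymetrix marked f for probes shared within a gene family, moved the other way on replicate 5, where it had its highest value of 844 against 456 to 753 on the others. The r between the Bgn sets was −0.45 over 8 arrays and 0.17 without replicates 5 and 6. Replicate 5 was the array with the high Gapdh 3′ over 5′ ratio, whose part in the Bgn values was not tested. Dcn and Bgn had a Pearson r of 0.07 (exact permutation p = 0.868, adjusted 0.911 over 8 pairs) and a rho of 0.40 (exact permutation p = 0.327, adjusted 0.616), and r was 0.13 without replicates 6 and 7 and 0.23 without 5 and 6.

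Sparc had the widest spread for its level over the 8 arrays. Without replicate 6 alone its log2 variance ratio was 0.99 and that of Bgn 1.46. Without both replicates 5 and 6 the ratio was 2.17 for Sparc and 1.58 for Bgn. The signal of Sparc ran from 282 on replicate 6 and 367 on replicate 7 through a median of 552 to 804 on replicate 1. It had a mean of 545 ± 165.98 (SD, n = 8). The range was 2.85-fold, and 2.19-fold without replicate 6. Timp3, which binds to the matrix and inhibits metalloproteinases, ran from 430.3 on replicate 4 through 629 to 849 on replicate 5, with a mean of 632 ± 119 (SD, n = 8). Its 561 on replicate 6 was the second lowest value, and the low animal, replicate 4, was no extreme for any other of the 10 genes.

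Pairs of matrix genes were then compared over the 8 animals. For 8 pairs taken by the known partnership of the proteins, 0 passed an adjusted p of 0.05 by the exact permutation test. The highest was Sparc with Col4a1, at a Pearson r of 0.66 (exact permutation p = 0.0757, adjusted 0.303) and a rho of 0.83 (exact permutation p = 0.0154, adjusted 0.123). Without the animals farthest from the Sparc median (replicates 6 and 7) r was 0.69, and without those farthest from the Col4a1 median (replicates 1 and 7) it was 0.36. Without replicates 5 and 6 it was 0.97 over 6 arrays (exact permutation p = 0.00278, adjusted 0.0222). On replicate 6 Sparc was lowest of all while Col4a1, at 238, was in the middle, and over the 6 animals other than replicates 5 and 6 the orders of the genes differed only in the places of replicates 3 and 8. Col1a1 with Col1a2 had r = 0.65 (exact permutation p = 0.0751, adjusted 0.303) and rho = 0.76 (exact permutation p = 0.0368, adjusted 0.147), with r = 0.40 without replicates 1 and 7 and 0.72 without 5 and 6, and these values come from the brightest sets only.

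For type III against type I collagen the correlations lay near 0. Col3a1 had r = −0.11 with Col1a1 (exact permutation p = 0.809, adjusted 0.911; rho −0.31, exact permutation p = 0.462, adjusted 0.616) and r = −0.04 with Col1a2 (exact permutation p = 0.911, adjusted 0.911; rho −0.21, exact permutation p = 0.619, adjusted 0.708). Without the animals farthest from the median of the type I gene, these were −0.83 (replicates 1 and 7 left out) and 0.20 (replicates 7 and 8), and without replicates 5 and 6 they were 0.18 and −0.28. Sparc with Col1a1 had r = −0.38 (exact permutation p = 0.355, adjusted 0.710) and rho = −0.43 (exact permutation p = 0.299, adjusted 0.616), with r = 0.46 without replicates 6 and 7 (farthest for Sparc), −0.92 without 1 and 7 (farthest for Col1a1) and −0.38 without 5 and 6. On the second probe sets the signs differed: the second Col1a1 set had r = 0.77 with Col3a1 (exact permutation p = 0.0311, adjusted 0.260 over 9 such pairs; rho 0.64, exact permutation p = 0.0962, adjusted 0.216), and this was 0.47 without replicates 6 and 8 and 0.28 without 5 and 6. The relation of the collagen chains to each other was thus not settled by these probe sets.

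Over all 45 pairs of the 10 genes, 29 had a positive r, with a median of 0.24, beside a median of 0.00 and 50.1% positive over all pairs of kept genes. By Pearson's r over 8 arrays the 3 highest pairs were those among Sparc, Col3a1 and Dcn. Sparc and Col3a1 had r = 0.90 (exact permutation p = 0.00164, adjusted 0.0452 over the 45 pairs) and rho = 0.93 (exact permutation p = 0.00223, adjusted 0.1004), and r was 0.61 without replicates 1 and 6. Sparc and Dcn had r = 0.91 (exact permutation p = 0.00201, adjusted 0.0452) and rho = 0.79 (exact permutation p = 0.0279, adjusted 0.207), and r was 0.58 without replicates 6 and 7. Dcn and Col3a1 had r = 0.90 (exact permutation p = 0.00694, adjusted 0.104) and rho = 0.79 (exact permutation p = 0.0279, adjusted 0.207), and r was 0.52 without replicates 6 and 7. Without replicates 5 and 6 the same 3 pairs had r = 0.83, 0.86 and 0.59. By Pearson's r 2 of 45 pairs passed the adjusted threshold and by Spearman's rho 0 did (4 and 8 unadjusted), and the pairs were named after their values were seen. By rho the order was another one: Col3a1 with Col4a1 came second, at rho = 0.90 (exact permutation p = 0.00456, adjusted 0.103) and r = 0.53 (exact permutation p = 0.169, adjusted 0.741). Its r was 0.83 without replicates 1 and 6 and 0.84 without 5 and 6, above the 0.59 of Dcn with Col3a1 there.

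**Figure D3:**
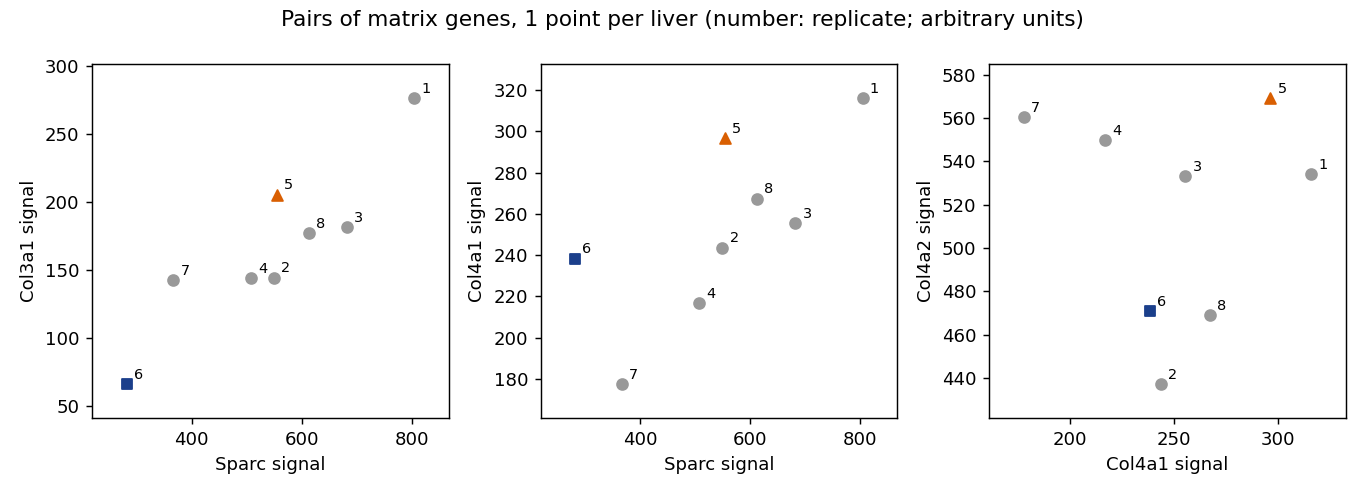
Normalized signals of 3 pairs of matrix genes, Sparc with Col3a1 (left), Sparc with Col4a1 (middle) and Col4a1 with Col4a2 (right), 1 point per animal with its replicate number (arbitrary units). Col3a1 goes up with Sparc in nearly all animals (r = 0.90), Col4a1 does so apart from replicate 6 (r = 0.66 with it), and Col4a2 has no common order with Col4a1 (r = −0.08).

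Lum stood with Col4a2 rather than with Dcn, at r = 0.80 (exact permutation p = 0.0152, adjusted 0.171 over 45 pairs) and rho = 0.83 (exact permutation p = 0.0154, adjusted 0.173), with r = 0.91 without replicates 2 and 8 and 0.78 without 5 and 6. The lowest r was −0.52, between Col1a2 and Col4a1. Without replicate 6 the median over the 45 pairs was 0.06 with 26 positive, and without replicates 5 and 6 it was 0.18 with 27 positive.

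**Figure D4:**
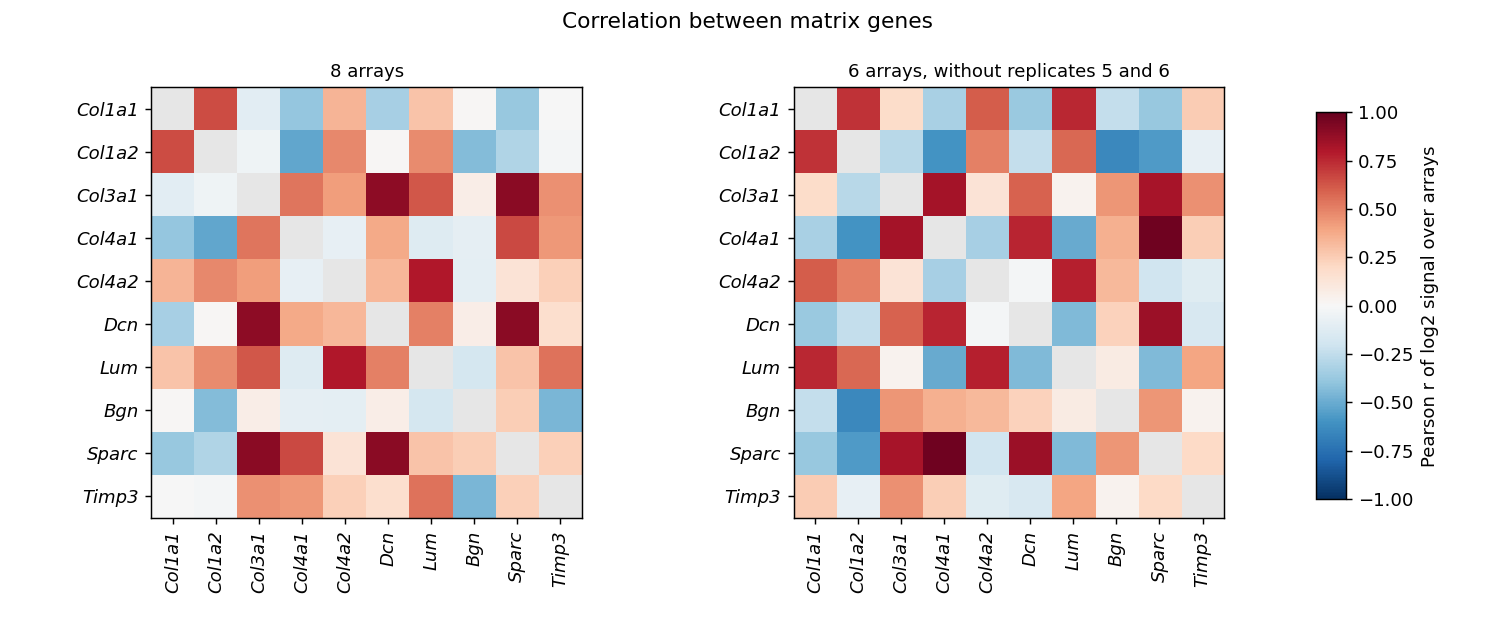
Pearson r between the log2 signals of each pair of the 10 matrix genes, over 8 arrays (left) and over the 6 without replicates 5 and 6 (right), on a colour scale from −1 (blue) to 1 (red), with the diagonal in grey. Sparc with Dcn and Sparc with Col3a1 are red in both panels, and Dcn with Lum goes from 0.50 to −0.44.

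The start regions of Col3a1 and Sparc are shown because these genes had among the highest correlations, with the TATA box (TATAAA) in capitals. They are the 250 bases before the annotated starts in RefSeq (GRCm38.p6), Col3a1 on the plus strand at chr1:45311288-45311537 and Sparc on the minus strand at chr11:55420081-55420330.
Col3a1: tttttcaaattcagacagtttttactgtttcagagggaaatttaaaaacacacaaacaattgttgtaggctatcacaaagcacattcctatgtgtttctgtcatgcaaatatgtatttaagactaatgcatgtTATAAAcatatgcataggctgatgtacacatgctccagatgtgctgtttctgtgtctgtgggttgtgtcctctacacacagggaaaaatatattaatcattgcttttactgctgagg
Sparc: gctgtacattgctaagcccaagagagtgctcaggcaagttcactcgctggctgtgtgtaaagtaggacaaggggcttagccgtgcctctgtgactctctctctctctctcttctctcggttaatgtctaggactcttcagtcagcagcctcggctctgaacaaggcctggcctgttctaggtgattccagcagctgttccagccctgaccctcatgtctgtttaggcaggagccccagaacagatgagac
The motifs searched, on both strands, were the TATA box (TATAAA), the CCAAT box (CCAAT, in 37.4% of all windows) and the GC box. The Col3a1 window held 1 match to TATAAA, a motif found in 13.6% of all windows, and the Sparc window held none of the 3 motifs. The first base of the Col3a1 match lay 117 bases before the annotated start, and whether it acts as a TATA box was not tested. The GC content was 37.7% for Col3a1 and 55.3% for Sparc, against 74.0% for Col4a1 and 73.7% for Col4a2. Of the 10 genes, 7 had a window in the table.

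Genes whose pattern over the animals was most like a matrix gene were looked for among the other 4800 kept genes, likeness being the lower of r over 8 arrays and r over 6 without replicates 5 and 6. For Dcn these were Hagh (0.98), the cytochrome Cyp3a25 (0.93) and Sgpl1 (0.91). For Col4a1 they were Siva1 (0.96), Ubtf (0.95) and the kinase Jak2 (0.93), and for the brightest Col1a2 set Ctnnd2 (0.96), Dhrsx (0.94) and Commd9 (0.91). Of the 4800 genes, 6 had a likeness above 0.9 to Dcn, 9 to Col4a1 and 4 to Col1a2. The values describe these 8 arrays and carry no test.

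Other genes of matrix biology were taken from lists, and none of their kept genes passed the adjusted threshold of limma's variance test. Enzymes and helpers of collagen synthesis had 8 kept of 12 on the array. P4hb, a subunit of prolyl hydroxylase, ran from 1115 on replicate 5 to 3756 on replicate 2, the cyclophilin Ppib from 2136 on replicate 5 to 3269.9 on replicate 7, and Mia3, a receptor for procollagen export, from 1004 on replicate 6 to 2324 on replicate 5. Of these 8 genes 5 had their lowest signal on replicate 5, beside 28.3% of all kept genes, and 1 had it on replicate 6, near the 16.6% of all kept genes.

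Of other matrix proteins 13 were kept of 34 on the array, with 0 called and a median log2 variance ratio of −0.16. Vtn, the hepatocyte-made vitronectin, ran from 8235 on replicate 5 to 14281 on replicate 6, Col18a1, the source of endostatin, from 2579 on replicate 5 to 4881 on replicate 4, and the microfibril collagen Col6a3 from 95.8 on replicate 5 to 265 on replicate 1. Of the 13, 2 had their lowest value on replicate 6, Postn (130.1) and Tgfbi (363), a share near the 16.6% of all kept genes. Of matrix proteases and inhibitors 3 were kept of 15: the membrane protease Mmp14 ran from 423 on replicate 5 to 957 on replicate 7, Timp1 from 506 on replicate 5 to 953 on replicate 6, and plasminogen (Plg) from 24658 on replicate 3 to 31871 on replicate 5. Timp1 was thus highest on the animal in which Timp3 was second lowest.

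Matrix receptors had 8 kept of 17, 0 called and a median ratio of −0.22. Integrin β1 (Itgb1) ran from 4966 on replicate 6 to 6649 on replicate 5, and the syndecan Sdc2 was the steadiest, from 2099.8 on replicate 4 to 2388 on replicate 5. Sdc4 reached 1233 on replicate 6, above the 379 to 608 of the other 7 arrays, and Sdc1 was down at 343 on replicate 5, below the 546 to 746 elsewhere. In the TGF-β and PDGF list, 10 were kept of 21 and 1, Inhbe, passed unadjusted, beside 5.67% of all kept probe sets. Among the cell type lists, hepatocyte and exocrine pancreas had 2 such genes each, and portal fibroblast, Kupffer cell and adipose tissue had 1 each. Inhbe, a hepatocyte activin subunit, was 45.4 on replicate 6 and 147 to 333 elsewhere. Smad7, an inhibitor induced by TGF-β, ran from 162 on replicate 6 to 535 on replicate 1, the animals that were lowest and highest for Sparc and Col3a1 too, while Smad4 (451 on replicate 2 to 745 on replicate 3) and Ltbp4 (626 on replicate 5 to 1164 on replicate 1) had other orders.

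Markers of the cells that make matrix were set beside these genes. Of 18 stellate cell markers 13 were on the array and 4 were kept: Des (desmin), Reln, Cxcl12 and Tcf21. Their summed signal ran from 3408 on replicate 6 to 4470.0 on replicate 5, and their mean log2 deviation was −0.15 on replicate 6, within the −0.20 to 0.26 of the others. Reln was lowest on replicate 6, at 575 against 769 to 1325, while Des, at 209, was among the higher values there. Of the 9 markers below the level filter, 2 were lowest on replicate 6 alone (Pdgfrb, at the floor there, and Nes, at 48.6) and 3 were highest there (Gfap at 273, Vim at 133 and Vipr1 at 52.5). The check of the stellate label thus rested on 4 markers.

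Of the endothelial markers, 7 of 10 kept genes were lowest on replicate 6 (Kdr, Flt4, Cdh5, Tek, Fcgr2b, Mrc1 and Ramp2), beside 16.6% of all kept genes. Their summed signal ran from 5306 on replicate 6 to 7132 on replicate 4, and the mean log2 deviation on replicate 6 was −0.47 against −0.08 to 0.21 elsewhere. Kdr, the VEGF receptor of sinusoidal endothelium, read 126 on replicate 6 against 210.4 to 411 elsewhere, and Mrc1 was 234 there and up to 889.7 on replicate 5. Other endothelial markers were not low there: Stab1 was second highest on replicate 6 at 635, Eng read 2630.4 against a mean of 2534, and of the 5 below the filter Lyve1 was highest at 96.1, Pecam1 second highest at 183, and Flt1 and Vwf lowest. On replicate 1, where Sparc and Col3a1 were highest, the endothelial deviation was 0.04. The part of the endothelial share in the low Sparc, Col3a1, Dcn and Lum of replicate 6 was not tested.

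Of the remaining cell types, the smooth muscle list had 2 kept of 8 (Tagln and Actg2), with a summed signal of 402 on replicate 6 to 579 on replicate 7. Acta2, the marker of activated stellate cells, lay below the filter, from the floor on replicate 4 to 254 on replicate 2. Portal fibroblast markers had 2 kept of 8 (Eln and Entpd2), summing to 453 on replicate 5 and 977 on replicate 2. Kupffer cell markers (8 kept of 10) summed to 4972 on replicate 5 and 7575 on replicate 4, and hepatocyte markers (8 of 8) to 120993 on replicate 5 and 129639 on replicate 2. Neutrophil markers (2 of 8) summed to 234 on replicate 2 and 661 on replicate 6, B and plasma cell markers (2 of 5) to 426 on replicate 8 and 687 on replicate 6. The 2 B cell markers went opposite ways on replicate 6, where Ms4a1 was highest at 560 and Cd79a lowest at 126. Their mean log2 deviation there was −0.03. Of the 6 neutrophil markers below the filter, 2 were lowest on replicate 6 alone (Ngp and Ltf) and 2 were highest there (S100a8 and S100a9). The mesothelial marker Upk3b (1 kept of 4) ran from 77.7 on replicate 4 to 205 on replicate 6, the adipose marker Lep (1 of 4) from 333 on replicate 5 to 1942 on replicate 6, exocrine pancreas genes (4 of 4) from 1359.7 on replicate 1 to 3815 on replicate 2, and none of 5 cholangiocyte markers on the array was kept. Of the 3 adipose markers below the filter, Retn was highest on replicate 6 at 30.5. Adipoq (64.7) and Fabp4 (96.7) lay below their means of 76.7 and 106 there. Of the lists in this paragraph, only smooth muscle had its lowest sum on replicate 6, where the matrix genes had their lowest mean deviation. That sum rested on 2 genes, which differed: Tagln was lowest on replicate 6 at 143, and Actg2 on replicate 3 at 244. Of the 6 smooth muscle markers below the filter, 0 were lowest on replicate 6 alone, and 1, Smtn, was highest there at 46.2.

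**Figure D5:**
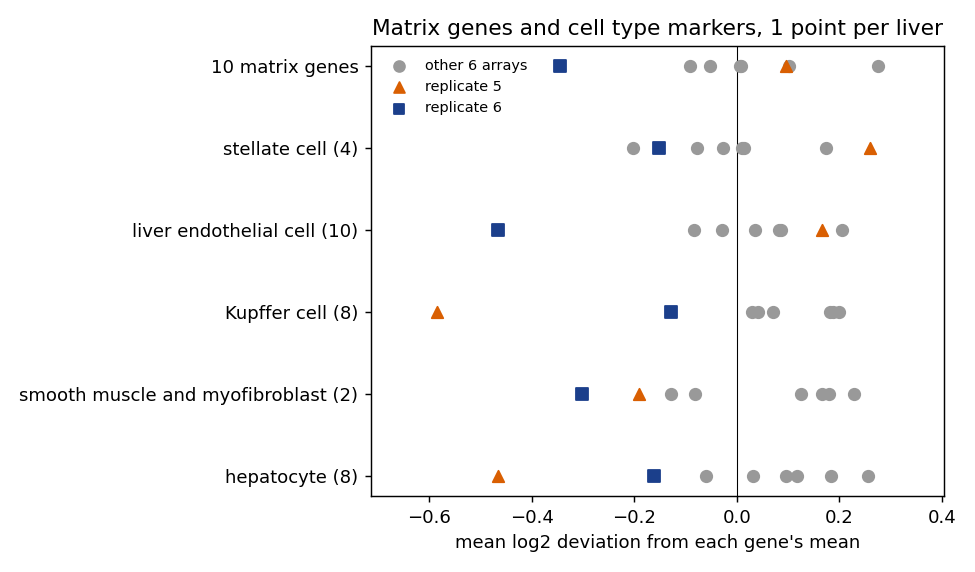
Mean log2 deviation from each gene's own mean (x axis) for the 10 matrix genes and for marker lists of 5 cell types, with the number of kept genes in brackets, 1 point per animal. Replicate 6 (square) is the lowest point for the matrix genes, the endothelial markers and the smooth muscle markers, at −0.34, −0.47 and −0.30.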

How the data were processed

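RNA of 8 livers (1 group) was measured on 8 arrays. Per the labels, a Hewlett-Packard scanner read the arrays and the authors refer to an earlier publication for image analysis. Signal software, background step and scaling are not named in these labels. The deposited values are linear intensities, 1 per probe set and array (12488, of which 66 are controls). They had a trimmed mean of 500.4 on each array and medians of 132 to 165.9. The number of arrays limits the precision.

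Here the 12422 other probe sets were quantile-normalized, floored at the 20th percentile and put on the log2 scale, and the 6211 above the median level were kept. limma 3.58.1 in R 4.3.3 set each variance against a trended, robust prior (4.03 degrees of freedom, the common value for all probe sets), by an F test for more spread (1-sided), adjusted after Benjamini-Hochberg with a threshold of 0.05. On simulated data most genes passed the adjusted threshold only where their spread was raised strongly. Correlations of log2 values used 2-sided exact permutation over 40320 orders of the arrays. Symbols came from the platform annotation, sequences from RefSeq. The 5 pathway and 12 cell type lists, the genes described and the tests were chosen with earlier results of these data known. Genes named from the lists are the 2 brightest and 2 most variable kept genes of a pathway list and 1 of each for a cell type, and the 3 genes most like Col1a2, Col4a1 and Dcn. The others named (Postn, Tgfbi and the markers beside the endothelial, stellate, smooth muscle, neutrophil, adipose and B cell lists) were chosen after their values were seen. The second probe sets as an alternative were added after seeing the data. The labels name 8 separate mice.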

Additional observations from a re-analysis of the deposited data

Results flagged for a closer look

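In 56 sets of 8 values (the matrix genes, their other probe sets above the floor on all arrays, and the genes named by rule), the lowest or highest animal was compared with the nearest of the others by Dixon's gap ratio, and 16 had an animal far from the rest. The ratio was taken on log2 values, while the signals given below are linear. Chance alone gives about 5% for each set, but many of these genes were named for being the most variable of their list, and 20.8% of all 4810 kept genes had such an animal (16.2% on replicate 5 and 2.41% on replicate 6). Of the 1002 kept genes with such an animal, it was replicate 6 in 116 and replicate 5 in 778. Among the 16 sets here it was replicate 6 in 4 and replicate 5 in 9.

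Among the matrix genes, Dcn was 2952 on replicate 6, against 3840.0 to 4679.9 on the others, and Col3a1 was 66.3 there, against 142 to 276. Also on replicate 6, Inhbe was 45.4 and Sdc4 was high at 1233. On replicate 5, the array with the high Gapdh 3′ over 5′ ratio, C1qa was 80.0, Col18a1 2579, Entpd2 96.9, Hnf4a 187, Lep 333, Mmp14 423, Sdc1 343 and Vtn 8235, all low, and Plg was high at 31871. On other arrays, Alb was low on replicate 8 at 29719.6, Upk3b was low on replicate 4 at 77.7, and Reg1 was high on replicate 2 at 1968. For Alb and Plg the ranges were narrow, 1.07-fold and 1.29-fold. Both had 31871 as their highest value, since quantile normalization gives all arrays the same set of values.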

How the results depend on the processing

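The limma test called 0 probe sets under all 8 alternatives. The count at an unadjusted p of 0.05 was 352. It became 35 with no level filter, 155 with the filter at the 75th percentile and 217 when all probe sets of 1 gene were averaged. Those settings test 12422, 3106 and 4312 items. With no level filter the log2 variance ratio was above 0 for all 10 matrix genes, from 3.34 for Col4a2 to 6.90 for Sparc. Its sign therefore depended on the filter for some genes, and the prior had 0.83 degrees of freedom there. Of the 10 matrix genes 4 passed the filter at the 75th percentile. Some extreme animals changed with the scaling: in the deposited signals Col1a1 was lowest on replicate 5 (316). There Dcn was highest on replicate 5 (4771), Col4a2 on replicate 7 (565) and Bgn on replicate 8 (2148). Col3a1, Dcn, Lum and Sparc stayed lowest on replicate 6. Of the 8 fixed pairs 1 (Sparc with Col4a1) passed without both replicates 5 and 6, and 0 otherwise. Of 45 pairs 26 to 31 were positive under the other alternatives, 37 with the mean over probe sets and 40 with the second brightest sets, where the median r was 0.38 in each case. With 8 arrays, only strong correlations could pass, and signals near the floor of 24.6, as on the second Col1a1, Col1a2 and Col3a1 sets, carry little information on order.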
